A study of Caenorhabditis elegans with 2 samples.

Results

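Distal intergenic regions are candidate LIN-35 binding regions with their highest signal outside protein-coding genes in the genome of *Caenorhabditis elegans*. They were taken from the list called on both libraries pooled. A region belonged to the class when its summit, the position of its highest signal, lay outside every protein-coding gene and more than 1000 bp from every protein-coding gene start, on a nuclear chromosome. Summits within 500 bp of the start of a tRNA, snoRNA or snRNA gene were left out. The rule used position alone, and it gave 6049 of the 30000 pooled regions, or 20.2% of the 29978 nuclear ones. The other nuclear regions were 11798 promoter regions with a summit within 1000 bp of a protein-coding start, 11964 distal genic regions inside a gene and farther from any start, and 167 intergenic regions near a small RNA gene.

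The material was whole young adult worms of both sexes, strain YL402, carrying the *unc-119*(ed3) mutation on chromosome III and the integrated transgene vrIs56. In the transgene the *pie-1* promoter, which is active in the germline, drives LIN-35 with GFP and FLAG tags and the *lin-35* 3′ UTR, and a wild-type *unc-119* copy is present. The labels name no mutation of the endogenous *lin-35* gene. The 2 libraries are biological replicates 2 and 3 of this single group, so no conditions could be compared, and cell types that use the *pie-1* promoter could not be told apart from one another in whole animals. Replicate 2 gave 20291 regions and replicate 3 gave 30000, and 396 pooled peaks, 376 of them nuclear, passed the authors' threshold on irreproducible discovery rate (IDR), a measure of replicate agreement. Those peaks are called thresholded here.

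LIN-35 is a pocket protein of the retinoblastoma family. It works as a bridge in the DREAM repressor complex, between MuvB subunits and the E2F-like factors EFL-1 and DPL-1, and the complex is best known for repressing cell cycle and germline genes from their promoters. DNA contact is made through E2F motifs and through the cell cycle genes homology region (CHR), which LIN-54 reads. In the nematode, coding genes are closely packed, so intergenic space away from starts holds enhancers, the ends of genes, non-coding RNA genes and pseudogenes, and trans-splicing can place the true transcription start of a gene far upstream of its annotated start.

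The sequences of 9 of the 22 thresholded regions are shown first because they differ in which motifs they hold. Each is the reference sequence of 201 bases centred on the summit, read 5′ to 3′ on the plus strand of ce11. It is named by the nearest protein-coding start, and for some windows a second flanking gene is added. Capitals mark matches on either strand to the E2F motif, spelled TTCCCGC or TTGGCGC or TTCGCGC or TTGCCGC, and to the CHR motif, spelled TTCGAA or TTTGAA. The windows are chrIII:5719901-5720101 for wrm-1, chrII:8015460-8015660 for zyg-11, chrV:2600636-2600836 for F53E10.5, chrII:2451106-2451306 for pqn-42 and vab-19, chrII:12800043-12800243 for cpt-1 and Y46G5A.18, chrV:11896600-11896800 for K12G11.6 and sma-1, chrIII:7494974-7495174 for cgh-1, chrIV:3212039-3212239 for slmp-1 and chrX:1643804-1644004 for ZK380.4. The first 7 hold at least 1 E2F match, and 4 of these hold 2. E2F matches are thus over-represented among the windows shown, since 10 of all 22 thresholded regions hold a match. The *slmp-1* window holds CHR matches alone and a long run of alternating G and C. The *ZK380.4* window holds 1 CHR match and lies over an annotated pseudogene.
wrm-1: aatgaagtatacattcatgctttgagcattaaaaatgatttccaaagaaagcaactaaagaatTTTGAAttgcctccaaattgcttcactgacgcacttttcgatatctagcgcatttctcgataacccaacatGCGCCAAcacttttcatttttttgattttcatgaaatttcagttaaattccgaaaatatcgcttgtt
zyg-11: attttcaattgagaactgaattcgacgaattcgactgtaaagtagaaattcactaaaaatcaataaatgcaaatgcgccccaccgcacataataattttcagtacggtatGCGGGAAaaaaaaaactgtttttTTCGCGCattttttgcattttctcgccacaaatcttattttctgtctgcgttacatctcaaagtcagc
F53E10.5: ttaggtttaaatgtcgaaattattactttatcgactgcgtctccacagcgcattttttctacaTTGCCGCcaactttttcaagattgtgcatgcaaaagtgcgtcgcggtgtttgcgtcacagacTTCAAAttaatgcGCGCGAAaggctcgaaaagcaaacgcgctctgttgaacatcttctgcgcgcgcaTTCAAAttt
pqn-42 and vab-19: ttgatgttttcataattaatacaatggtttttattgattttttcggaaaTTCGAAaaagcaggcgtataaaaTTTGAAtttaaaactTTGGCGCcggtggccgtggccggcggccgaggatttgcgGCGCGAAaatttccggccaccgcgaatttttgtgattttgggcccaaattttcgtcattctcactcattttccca
cpt-1 and Y46G5A.18: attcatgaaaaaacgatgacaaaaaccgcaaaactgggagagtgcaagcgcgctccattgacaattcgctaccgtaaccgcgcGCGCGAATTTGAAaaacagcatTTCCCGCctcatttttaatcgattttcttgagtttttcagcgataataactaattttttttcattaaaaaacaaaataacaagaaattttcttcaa
K12G11.6 and sma-1: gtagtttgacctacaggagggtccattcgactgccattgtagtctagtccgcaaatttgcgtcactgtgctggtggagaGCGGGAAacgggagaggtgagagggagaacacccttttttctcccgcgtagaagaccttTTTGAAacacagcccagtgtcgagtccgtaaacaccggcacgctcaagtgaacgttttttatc
cgh-1: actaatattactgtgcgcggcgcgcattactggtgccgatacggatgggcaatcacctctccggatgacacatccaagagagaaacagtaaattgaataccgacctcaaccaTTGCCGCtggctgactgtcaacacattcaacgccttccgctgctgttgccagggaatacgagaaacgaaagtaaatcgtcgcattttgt
slmp-1: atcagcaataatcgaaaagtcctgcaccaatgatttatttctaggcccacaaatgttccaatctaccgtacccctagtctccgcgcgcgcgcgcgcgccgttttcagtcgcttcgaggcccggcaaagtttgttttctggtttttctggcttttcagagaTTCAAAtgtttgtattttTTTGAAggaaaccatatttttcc
ZK380.4: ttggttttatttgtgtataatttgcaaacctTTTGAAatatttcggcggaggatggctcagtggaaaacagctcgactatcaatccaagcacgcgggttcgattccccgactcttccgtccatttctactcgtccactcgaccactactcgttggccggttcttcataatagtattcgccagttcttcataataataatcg

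Few distal intergenic regions passed the threshold. A total of 22 of the 6049 were thresholded, 0.364% with an exact 95% interval of 0.228% to 0.550%, whereas 1.25% of all nuclear pooled regions were. Promoter regions passed in 2.83% of cases (334 regions, interval 2.54% to 3.15%) and distal genic regions in 0.142% (17 regions, interval 0.0828% to 0.227%). The 22 regions made up 5.85% of the nuclear thresholded peaks (interval 3.70% to 8.72%). These intervals are of the Clopper-Pearson kind and cover counting error only. The number of reads behind each region is unknown, and no test of a difference between classes was made.

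The same shares were taken in each library alone, from the 396 regions with the highest signal. In replicate 2, 31 of 3948 distal intergenic regions were in that set, 0.785% (interval 0.534% to 1.11%), beside 1.83% of all nuclear regions, 3.72% of promoter regions and 0.333% of distal genic regions. In replicate 3, the count was 24 of 6246, 0.384% (interval 0.246% to 0.571%), beside 1.24%, 2.56% and 0.401%. The share stood below that of promoters in the pooled list and in both libraries. It stood above that of distal genic regions in the pooled list and in replicate 2, but in replicate 3 the order was the other way and the intervals overlapped.

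**Figure D1:**
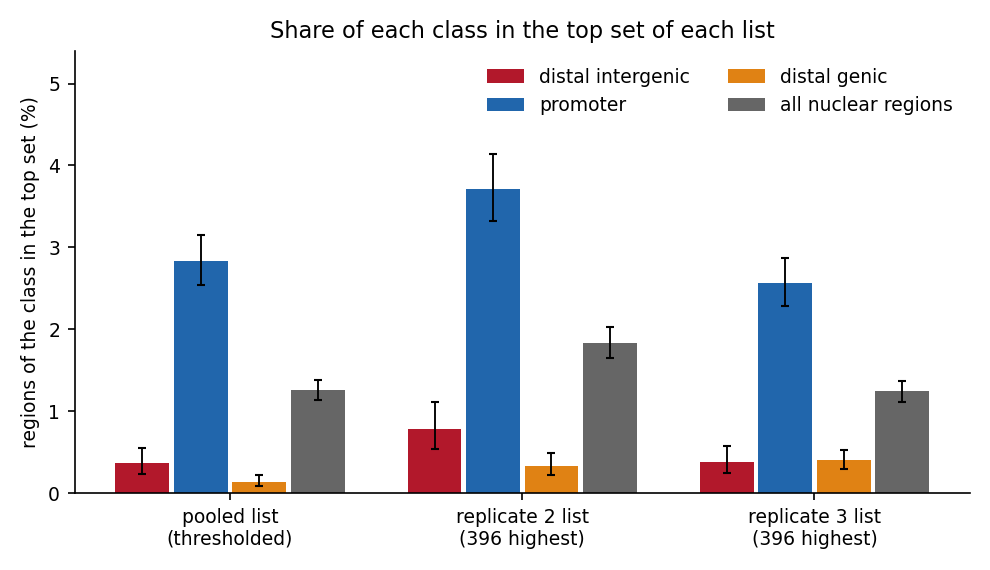
Share of each class of region in the top set, in percent, for the pooled list (thresholded peaks) and for each library (its 396 highest-signal regions). Bars are shares and lines are exact 95% intervals for counting error; promoter regions are highest in all 3 lists, and distal intergenic and distal genic regions change order in replicate 3.

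Most of the class had low signal. The deposited signal, the authors' enrichment value for a region, had a median of 8.86 and quartiles of 7.43 and 11.1 in distal intergenic regions, beside medians of 9.30 in promoter, 8.89 in distal genic and 9.05 in all nuclear regions. Its scale is unknown, so it is read only within a list. The highest distal intergenic signal was 68.7, at rank 89, and the 22 thresholded regions ran from 30.6 to 68.7 with a median of 37.1, while thresholded promoter regions had a median of 44.3. At the lower edge, the regions nearest to *lgc-26*, *chdp-1* and *mekk-3* had signals of 30.8, 30.7 and 30.6, and the 5 highest distal intergenic regions that missed the threshold had 29.4 near *R05D3.9*, 29.3 near *Y34B4A.4*, 28.8 near *K08D9.4*, 28.7 near *Y70G10A.4* and 28.6 near *tcc-1*. The class made up 5.85% of ranks 1 to 396, 10.9% of ranks 397 to 1000, 16.9% of ranks 1001 to 2000 and 21.4% of ranks 20001 to 30000 among nuclear regions.

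At the distance limit itself, regions on either side had similar median signals. The 228 distal intergenic regions within 100 bp beyond the limit had a median signal of 8.96. None was thresholded, which at the class share of 0.364% says nothing about that strip. The 225 intergenic summits within 100 bp short of it had a median of 8.84 and 1 was thresholded, 978 bp from the start of *ubq-1*, with a signal of 38.9. Nearer to starts, thresholded signals varied widely. A summit 691 bp from the start of *usp-4* had 110.9, above any in the class, and one 767 bp from that of *cyp-43A1* had 31.4. Among thresholded members the closest to the limit was 1104 bp from the start of *F40E3.3*.

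Thresholded regions were found in both libraries and the rest mostly were not. Of all distal intergenic regions, 727 overlapped a region of both replicate lists, 12.0% (interval 11.2% to 12.9%), beside 19.1% of promoter and 12.4% of distal genic regions, and 1348 overlapped neither. Of the 22 thresholded regions, 20 were in both lists. This count is close to how they were chosen, since the threshold rewards agreement between replicates. Down the pooled ranking the share in both lists was 60.6% at ranks 397 to 1000, 32.0% at 1001 to 2000 and 4.73% at 20001 to 30000.

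The 2 libraries ranked several thresholded regions very differently. The regions near *wrm-1*, *ife-5*, *slmp-1*, *pisy-1*, *F53E10.5* and *pqn-42* were among the 396 highest of both libraries. Ranks differed by more than 10-fold in 5 of the 20 regions found in both, beside 58 of 319 thresholded promoter regions and 9 of 15 distal genic ones. The *K12G11.6* region ranked 232 in replicate 2 and 6460 in replicate 3, the *cgh-1* region 2775 and 156, the *cpt-1* region 3534 and 187, the *zyg-11* region 65 and 1036, and the *H12I13.1* region 185 and 4731. The *lgc-26* and *mekk-3* regions were missing from replicate 2 and ranked 153 and 10435 in replicate 3. The regions near *car-1*, *unc-60*, *tsp-11*, *chdp-1* and *mekk-3* were in the top set of neither library.

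**Figure D2:**
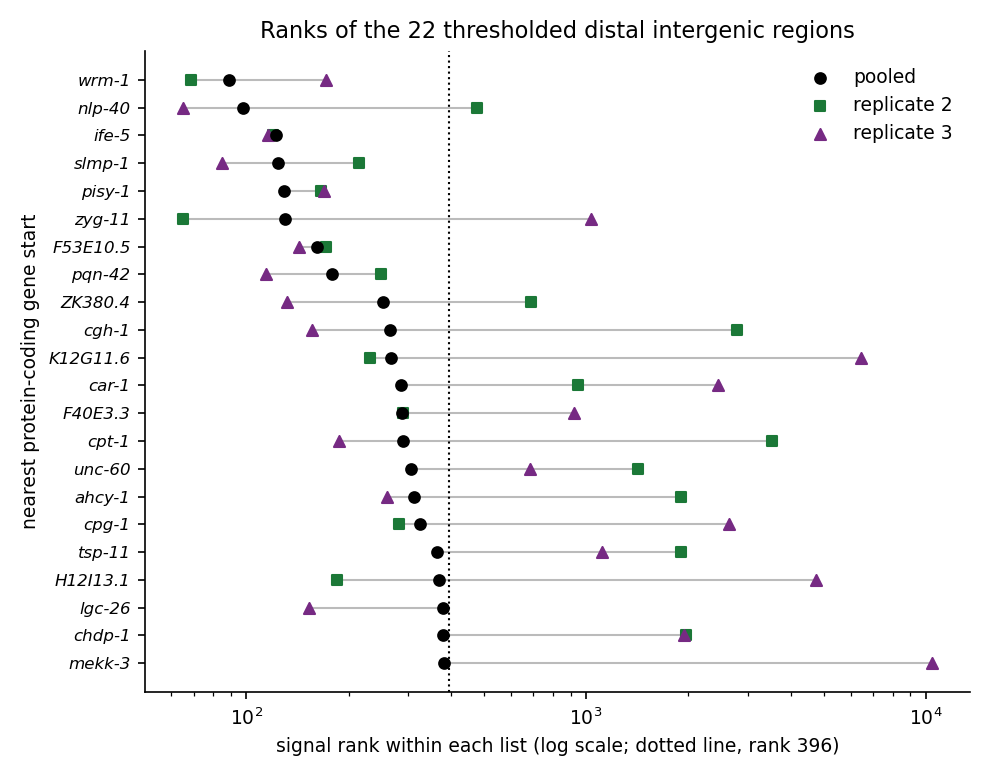
Signal rank of each thresholded distal intergenic region in the pooled list (circles), replicate 2 (squares) and replicate 3 (triangles), on a log axis. Regions are ordered by pooled rank and named by the nearest gene start; the dotted line is rank 396, and 6 regions lie left of it in both libraries.

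The highest region, with a pooled signal of 68.7, lay between *arf-1* and *wrm-1*, 2849 bp upstream of *wrm-1*, which encodes a beta-catenin of the Wnt asymmetry pathway. Its signal was 42.7 in replicate 2 (rank 69) and 24.6 in replicate 3 (rank 172). The deposited region covers III:5719929-5720018, and an annotated non-coding RNA, *B0336.15*, has its start 219 bp away. The 201 bp window around the summit held 1 E2F and 1 CHR match. The middle of the E2F match lay 37 bp from the summit, past the end of the deposited region.

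Of the 12 thresholded regions upstream of their nearest start, 5 more are described here. The *slmp-1* region (IV:3211991-3212286) had a pooled signal of 57.8, 21.5 in replicate 2 and 35.7 in replicate 3, and lay 1621 bp upstream of its gene. The region 1156 bp upstream of *pisy-1*, which encodes phosphatidylinositol synthase, had 56.3, 25.18 and 24.7 in the same order. The region 2120 bp upstream of *zyg-11*, a substrate receptor of a CUL-2 ubiquitin ligase needed for meiosis, also lay 296 bp past the end of *DH11.2*. It had 56.3, 43.6 and 13.5, and ranked 65 in replicate 2 and 1036 in replicate 3. The region 3362 bp upstream of *unc-60*, which encodes ADF/cofilin proteins that sever actin filaments, had 35.4, 9.32 and 14.8. The region 1140 bp upstream of *ahcy-1*, S-adenosylhomocysteine hydrolase, had 35.1, 8.39 and 20.5 and lay near the non-coding RNA *K02F2.11*.

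Several regions had their summit just past the 3′ end of a gene. The rule looked at summits only, and 19 of the 22 thresholded regions lay wholly outside protein-coding genes. The *ife-5* region (II:12284089-12284384) was centred 98 bp past the end of *ife-5*, which encodes a germline isoform of the cap-binding protein eIF4E, and had signals of 59.2 pooled, 32.4 in replicate 2 and 29.8 in replicate 3. The *cgh-1* region (III:7494926-7495221) was centred 246 bp past *cgh-1*, a DEAD-box helicase of the DDX6 type that protects stored oocyte mRNA, with signals of 38.2, 7.34 and 25.6. The *car-1* region was centred 27 bp past *car-1*, an LSm RNA-binding protein, with signals of 36.1, 10.7 and 11.2. The *cpg-1* region (III:4491280-4491575) was centred 36 bp past *cpg-1*, a chondroitin proteoglycan of the eggshell, and 199 bp from the end of the bZIP gene *atf-7*, with signals of 33.9, 18.6 and 11.01. The *nlp-40* region lay 180 bp past this neuropeptide-like gene and 467 bp from the end of *rcor-1*, a CoREST homolog, with signals of 65.9, 14.1 and 40.0. The region 259 bp past *vab-19*, an ankyrin-repeat protein of epidermal attachment, had 48.3, 19.97 and 30.1, and its nearest start was that of *pqn-42*. In these regions both libraries gave signal, but only the *ife-5* and *pqn-42* regions were in both top sets.

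Gene ends were common beside the thresholded regions. For 11 of the 22 summits (50%, interval 28.2% to 71.8%) a protein-coding gene ended within 500 bp, while it did so for 14.1% of the other distal intergenic regions and for 12.2% of all bases that the rule allows. The median distance to the nearest gene end was 476.5 bp in thresholded and 3065 bp in other regions, and that to the nearest start was 2591 bp and 2676 bp. The gap between the flanking genes was also shorter, with medians of 4612.5 bp and 7428 bp. The part of gap size in the gene-end distances was not tested. By gap, 15 of the 22 lay between genes on the same strand, 4 between converging genes and 3 between diverging genes (13.6%, interval 2.91% to 34.9%). Diverging gaps held 32.0% of the other regions and 30.5% of the allowed bases. Of the 22, 12 were upstream of the gene with the nearest start, beside 70.7% of the others. The 3 regions in diverging gaps, near *lgc-26*, *chdp-1* and *mekk-3*, were the 3 weakest.

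**Figure D3:**
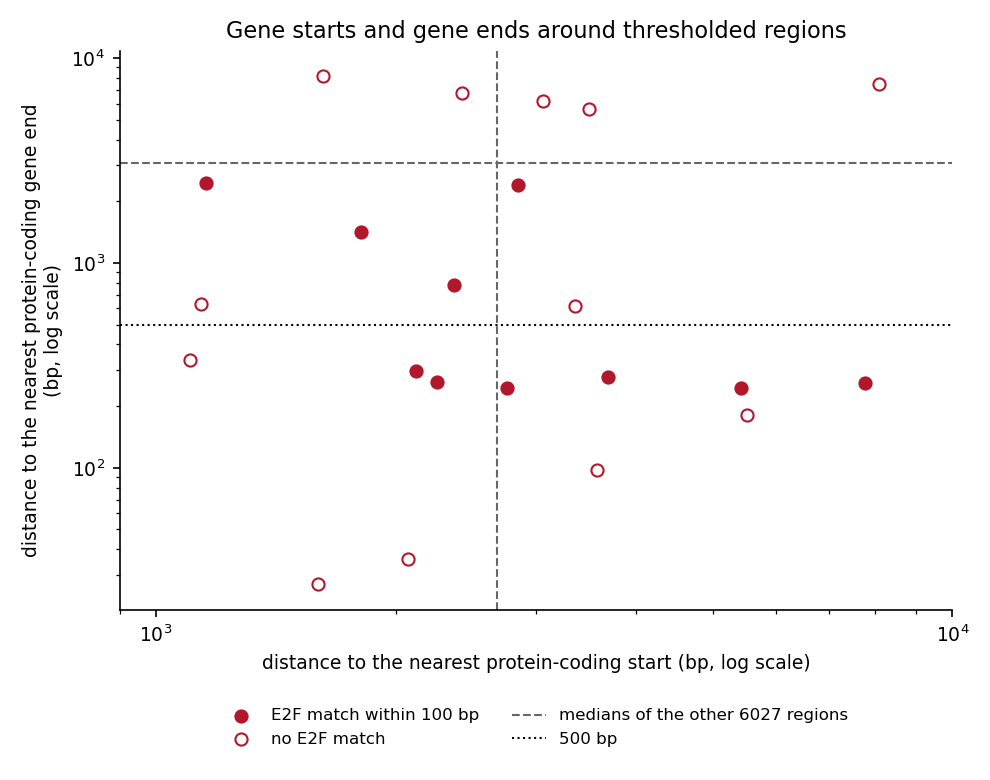
Distance from each of the 22 thresholded summits to the nearest protein-coding gene start and gene end, in bp on log axes. Filled circles hold an E2F match within 100 bp and open circles none; dashed lines are the medians of the other 6027 regions, and 11 of the 22 summits lie below the dotted 500 bp line.

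Most of these genes, like most protein-coding genes, had no thresholded peak at their own start. A thresholded peak lay within 1000 bp of the start of the nearest gene for 2 of the 22 regions, *cgh-1* and *cpg-1* (9.09%, interval 1.12% to 29.2%), and for 63 of the other 6027 (1.05%). Among all 19973 nuclear protein-coding genes the share was 2.47%. The *cgh-1* promoter peak had a signal of 102.9 and the *cpg-1* promoter peak 85.3, so in both genes the signal was higher at the start than past the end. The genes named above as *wrm-1*, *ife-5*, *zyg-11* and *car-1* were each nearest to a thresholded distal region and to none at their start. The next thresholded peak lay 2307 bp away for *cpg-1*, 3533 bp for *cgh-1* and 8047 bp for *wrm-1*, and farther for the others, up to 2101570 bp for *tsp-11*.

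E2F motifs were frequent in the thresholded regions. A match within 100 bp of the summit was found in 10 of 22, 45.5% (interval 24.4% to 67.8%), beside 7.33% of the other distal intergenic regions (442 of 6027), 6.43% of 201 bp windows tiled over the allowed space and 7.80% of all nuclear regions. Thresholded promoter regions held a match in 54.2% and thresholded distal genic ones in 5 of 17, 29.4%. At ranks 397 to 1000 the share in distal intergenic regions was 19.7% (13 of 66) beside 21.5% in promoters, and at ranks 1001 to 2000 it was 6.51% (11 of 169) beside 16.9%. From there down, distal intergenic shares stayed between 6.46% and 8.36%. The 10 thresholded regions with a match had a median signal of 43.2 and the 12 without had 35.7.

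The matches also differed in position. Distances were taken from the summit to the middle of the match. Of the 14 E2F matches in thresholded regions, 13 lay within 50 bp of the summit (92.9%, interval 66.1% to 99.8%). In the other distal intergenic regions 251 of 497 did (50.5%). The interval takes matches as separate draws, although 4 thresholded regions held 2. By region, 9 of the 10 thresholded regions with a match had it within 50 bp, and 237 of the 442 others. The single match beyond 50 bp was in the *tsp-11* region, at 55 bp. The *H12I13.1* match was 3 bp from the summit, the nearer of the pair between *cpt-1* and *Y46G5A.18* was at 8 bp and that of *pqn-42* at 10 bp.

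CHR matches were common everywhere. They were found in 16 of the 22 thresholded regions (72.7%, interval 49.8% to 89.3%), 56.2% of the others, 57.5% of tiled windows and 52.3% of all nuclear regions. Both motifs were present in 7 of the 22, at least 1 of them in 19, and neither in the *car-1*, *cpg-1* and *mekk-3* regions. In no thresholded region did an E2F match overlap a CHR match, although in the *cpt-1* window shown above the pair adjoin. The GATA motif TGATAA, read by intestinal and epidermal factors, was in 1 of the 22 and in 16.9% of all distal intergenic regions, beside 17.5% of tiled windows. The core motif upstream of piRNA genes was in none of the 22 and in 2.40% of the class, beside 2.90% of tiled windows. A match is a description of the letters and does not show that a factor binds there.

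**Figure D4:**
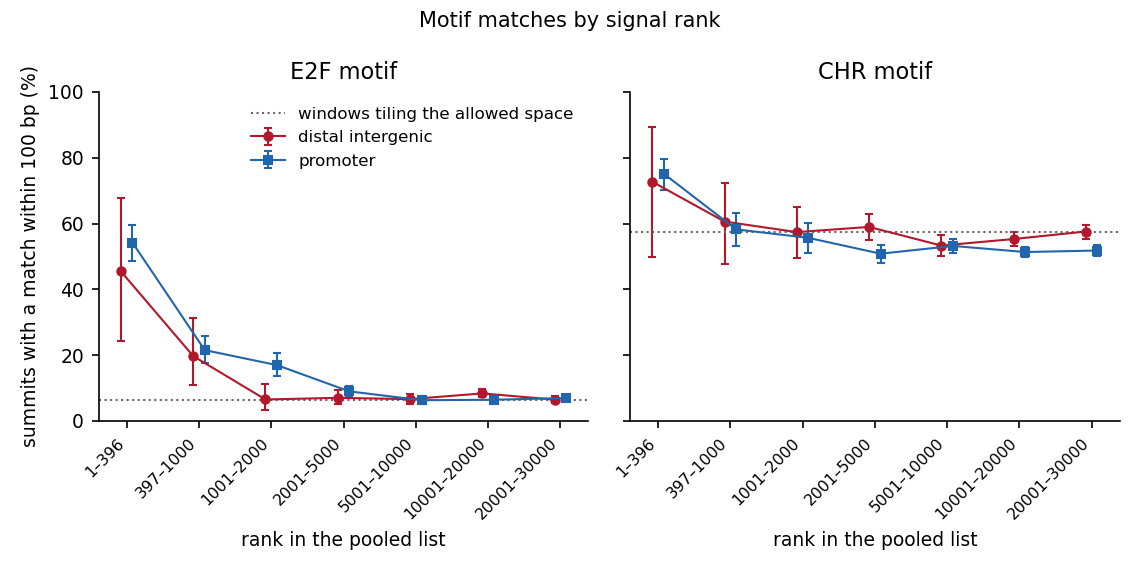
Share of summits with an E2F match (left) or a CHR match (right) within 100 bp, in percent, by rank in the pooled list, for distal intergenic (circles) and promoter regions (squares). Lines are exact 95% intervals and the dotted line is the share of windows tiled over the allowed space; the E2F share in distal intergenic regions is 45.5% at ranks 1 to 396 and 6.51% at ranks 1001 to 2000.

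Of the 9 windows shown above, those of *F53E10.5*, *cpt-1*, *cgh-1* and *slmp-1* hold runs of alternating G and C. The 6 letters GCGCGC, chosen after the sequences had been read, were found in 8 of the 22 thresholded regions (36.4%, interval 17.2% to 59.3%), 2.06% of the other distal intergenic regions and 1.41% of tiled windows. Thresholded promoter regions held them in 28.7%. The run can share up to 5 letters with the E2F spelling TTCGCGC. It was present with an E2F match in the *pisy-1*, *F53E10.5*, *cgh-1* and *cpt-1* regions and without one in the *ife-5*, *slmp-1*, *F40E3.3* and *chdp-1* regions. An E2F match, the run or both were present in 14 of the 22. The median GC content was 35.8% in the thresholded regions, 34.8% in the class and 37.8% in distal genic regions.

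The class was spread over all chromosomes, and in the pooled list X had the most regions per Mb of allowed space. X held 1594 of the 6049 regions, 26.4% (interval 25.24% to 27.5%), beside 22.6% of the allowed bases and 19.99% of all nuclear regions, or 290 regions per Mb of allowed space. The share on X was 27.2% in replicate 3 and 23.1% in replicate 2. The order did not hold in replicate 2, where chromosomes I, II and III stood farther above their shares of the allowed bases, with 12.1% against 11.3%, 15.1% against 14.3% and 12.0% against 11.2%. The autosomes had 214 to 252 regions per Mb, with the lowest on chromosome IV. Of the regions on X, 2 were thresholded, 0.125% (interval 0.0152% to 0.453%), against 20 of 4455 on autosomes, 0.449% (interval 0.274% to 0.692%), so the intervals overlapped. Chromosomes I and II had 6 each, V had 4, III had 3 and IV had 1 among 1040 regions. Of all 376 nuclear thresholded peaks, 9 were on X (2.39%), and of the 22 in this class 2 were (9.09%). The low count on X was thus not particular to this class. On autosomes, the middle of each chromosome, cut into 3 equal parts, held 32.7% of regions and 30.3% of the allowed bases.

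**Figure D5:**
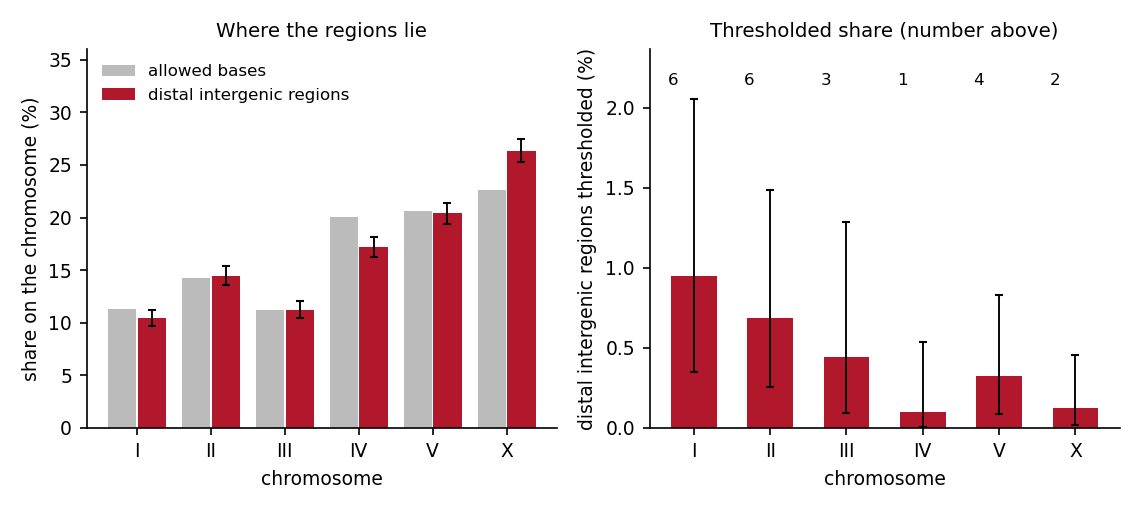
Left, share of distal intergenic regions and of the allowed bases on each chromosome, in percent. Right, share of the distal intergenic regions of each chromosome that were thresholded, in percent, with the number above; lines are exact 95% intervals, and X holds 26.4% of regions and 2 thresholded ones.

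The 2 thresholded regions on X differed in what lay beside them. The *ZK380.4* region (X:1643756-1644051) had signals of 39.1 pooled, 12.1 in replicate 2 and 27.8 in replicate 3. Its summit was inside a pseudogene that RefSeq lists as the tRNA pseudogene *ZK380.t2*, 8090 bp from the nearest protein-coding start, so it escaped the exclusion of tRNA genes because of its annotation as a pseudogene. The *tsp-11* region (X:9160763-9161058) lay 261 bp from the end of *tmbi-4* and 2253 bp upstream of the tetraspanin gene *tsp-11*, with signals of 31.3, 8.39 and 13.3.

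Genes that are not protein-coding were about as common near the regions as in the space the rule allows. A summit inside such a gene, or within 500 bp of its start, was found in 30.3% of the regions, beside 30.1% of the allowed bases. Non-coding RNA genes accounted for 10.8% beside 8.14%, pseudogenes for 12.3% beside 13.7%, piRNA genes for 7.24% beside 8.34%, long intergenic non-coding RNAs for 1.12% beside 0.992% and microRNAs for 0.562% beside 0.401%. Of the thresholded regions, 5 lay near such a gene, 3 of them near a non-coding RNA and 2 near a pseudogene. The *cgh-1* region was 62 bp from the start of the non-coding RNA *C07H6.17*.

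Soft-masked sequence is the repeats and low-complexity stretches marked in the reference. It covered a median of 31.4% of a distal intergenic region, 49.2% of a thresholded one and 26.7% of a nuclear region. The median was also higher in thresholded promoter regions, at 40.0%, than in all promoter regions, at 27.4%. The part of soft-masked sequence in the results was not tested. At least 1 stretch of 31 bases that occurs more than once in the genome was present in 860 of the 6049 regions (14.2%) and in 3 of the 22 thresholded ones. A region made mostly of such stretches was seen in 23 of 6049 (0.380%), beside 0.297% of nuclear regions. Of the thresholded regions, the *lgc-26* region alone was of this kind, with 61.3% repeated, and it was missing from replicate 2. Among regions below the threshold, the *Y70G10A.4* region was 88.6% repeated and was missing from replicate 3.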

How the data were processed

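LIN-35 ChIP-seq regions were analysed from 2 libraries of 1 group, as pooled, replicate and thresholded lists on ce11 (equal to WBcel235). Regions were called per replicate and on pooled alignments with a control, per the labels and the notes deposited beside them. No source used here gives the aligner, the caller, the IDR threshold or the read depth. The deposited signal of each region is the authors' value and was used only to rank regions within a list. The deposited −log10 q-values were tied at their maximum of 3.22 in 68 members and 808 nuclear regions, so they were not used to rank.

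Genes came from Ensembl release 115 and the pseudogene name from RefSeq (assembly WBcel235). Allowed bases are all positions that meet the rule. Overlaps were at least 1 bp, and windows were 201 bp, tiled over allowed space for the background. Classes, motif search and overlaps were tested on simulated data. No significance test was made. Shares have exact Clopper-Pearson 95% intervals, and p-values were not computed.

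The members and gene lists were chosen with earlier results of these data known. Named regions were every thresholded member, the 5 strongest others, the strongest on each chromosome and the 3 windows of 20000 bp with most members. Others in the text (*ubq-1*, *usp-4* and *cyp-43A1*) were named after their values were seen. The comparison with peaks at gene starts, the values at the distance limit and GCGCGC were added after seeing the data. Alternatives covered the distance, transcript starts, windows, overlaps, single libraries, a top set of 198 peaks and, added later, RefSeq genes and removal of transgene parts. Software was matplotlib 3.10.9, scipy 1.17.1, pandas 2.3.3 and numpy 2.4.6 under Python 3.11.15.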

Additional observations from a re-analysis of the deposited data

How the results depend on the processing

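Of 86 recomputed values, 70 moved by less than the interval of the reported value and 16 moved by more, and none had a test. The order of distal intergenic and distal genic shares turned in replicate 3, and the lead of X per allowed base was not seen in replicate 2. The thresholded share was 0.364%. With a replicate left out there is no thresholded list. The share among the 396 highest-signal regions of the remaining library was then 0.384% and 0.785%, beside 1.24% and 1.83% of all nuclear regions. The class share was 0.132% with the top set of 198. That set held 178 nuclear peaks in place of 376, so the share over all nuclear regions was lower too. The class made up 4.49% of those 178, beside 5.85% of the 376. The share of thresholded peaks in the class rose to 9.04% with a limit of 500 bp. Presence in both lists was 8.001% when overlap had to cover 0.5 of the shorter region. With the whole match inside the window, the E2F share was 3.82% within 50 bp and 10.4% within 150 bp, and the CHR share 32.5% and 70.2%. The share on X lay between 23.1% and 27.2% when a replicate was left out, and was 28.3% with RefSeq genes. The share near another gene was 28.2% with a limit of 500 bp, 32.1% with 2000 bp, 32.2% with small RNA genes kept, 13.2% for summits inside one and 24.3% with RefSeq genes. Regions over 0.9 repeated made up 0.0331%. The causes were not tested. Thresholded regions numbered 34 with a limit of 500 bp (19 with an E2F match), 16 with 2000 bp (8), and 22 with RefSeq (10), which shared 21 with the main set and lacked *H12I13.1*. The class held 4 regions at parts of the transgene, none thresholded. Depth is unknown, so no value says how many reads lie behind a region.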

Other observations

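Grouped by the gene with the nearest start, 120 distal intergenic regions lay at nuclear hormone receptor genes, 274 at chemoreceptor genes, 57 at F-box genes, 40 at C-type lectin genes, 38 at *ceh* homeobox genes, 37 at collagen genes and 9 at *hlh* genes, and none of these was thresholded. Over the whole class 0.364% of regions were, so counts of 0 in groups this small say nothing about the families. The highest signal among them was 26.8, near the chemoreceptor gene *srb-15*. Regions per Mb of allowed space around the genes ran from 114 at *hlh* genes, with only 9 regions, to 292 at homeobox genes, with 38. F-box genes had 165, beside 251 for genes in no family counted.

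Of the DREAM subunit, cell cycle and DNA replication lists, 1, 7 and 4 regions had a listed gene nearest. None was thresholded, which at the class share of 0.364% says nothing about these lists. Their highest signals were 12.7 near *lin-9*, 12.7 near *air-2* and 14.8 near *pcn-1*. Of 8 regions nearest to a germline RNA-binding gene, 3 were thresholded, at *car-1*, *cgh-1* and *ife-5*. The genes of that list were written down after those neighbours had been seen, so the count supports nothing.

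The 3 windows with the most regions are given by their counts; none held a thresholded region, which at the class share of 0.364% says nothing about these windows. The window V:11000001-11020000 held 10 regions, none in both libraries, with a best rank of 5796. The windows I:12540001-12560000 and X:16680001-16700000 held 9 each, with best ranks of 3319 and 4597. Of 5016 windows of 20000 bp, 2819 held a region and 188 held 5 or more.

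The top sets of the libraries differed in motif share. In replicate 2, 13 of 31 distal intergenic regions of the top set held an E2F match (41.9%, exact 95% interval 24.5% to 60.9%), and in replicate 3, 6 of 24 did (25%, interval 9.77% to 46.7%). The intervals overlapped, and the difference was not tested.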
